A study of Mus musculus with 2 samples.

Results

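Amino acid transporters are membrane proteins of the solute carrier (SLC) families that move amino acids into and out of the cell. The 9 genes described here are Slc3a2, Slc7a5, Slc7a6, Slc7a11, Slc7a1, Slc1a5, Slc38a1, Slc38a2 and Slc43a1. They were taken by symbol from 43346 Ensembl genes listed in each gene table, and all 9 were found. The cells were G1E-ER4, an immortalized mouse erythroid line of strain C57BL/6J origin. It lacks working GATA1 of its own and carries a restored GATA1 whose activity depends on estradiol. Its differentiation was started with 10 nM 17β-estradiol for 24 h. The series holds this 1 treated group with 2 biological replicates and no untreated cells, so levels are described and no effect of treatment was measured. The labels do not say whether the replicates came from separate cultures. All values come from 1 line at 1 time, and no p-value is given.

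An erythroid cell that is growing and filling with globin needs a steady supply of amino acids, and different carriers bring in different ones. Several SLC7 proteins are light chains that do the transport but reach the surface only when bound to the heavy chain 4F2hc, also called CD98, the product of Slc3a2. Leucine brought in by such exchangers and glutamine taken up by other carriers are inputs that the growth kinase complex mTORC1 senses. When amino acids run short, the kinase GCN2 leads to translation of the factor ATF4, which activates several transporter genes through a response element.

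The gene tables summed to 50277914 expected counts for replicate 1 and 47478888 for replicate 2. Nuclear protein-coding genes took 14373925 and 13901316 of these. Differences between the replicates were measured over 7244 of those genes, each with a mean of 200 or more counts. Their variance was 8.04 times that of sampling noise (chi-square over degrees of freedom), so the replicates were kept as separate libraries. All 12 erythroid markers were detected, at 1 TPM or more in both replicates. Hbb-bs, an adult beta-globin gene, was highest at 1001 ± 10.3 TPM (SD, n = 2). Slc4a1, the anion exchanger of the red cell membrane, was lowest at 3.21 TPM. Gata1 is 1 of the 12, at 57.6 TPM in replicate 1 and 65.7 TPM in replicate 2. The line carries a restored GATA1, and its part in the Gata1 value was not tested. None of 19 markers of other cell types reached 1 TPM in both replicates. In replicate 2 alone, Cd68 (2.08 TPM) and Mpo (1.29 TPM) did reach it. The summed TPM was 0.97 in replicate 1 and 4.93 in replicate 2 for 7 markers of granulocytes and macrophages, with Csf1r at no count. It was 0.21 and 0.81 for 6 of lymphocytes, and 0.13 and 0.05 for 6 of stroma and endothelium, with 4 of the 6 at no count in both lists.

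The highest members were Slc3a2, Slc38a2, Slc7a5 and Slc7a1, between 21.5 and 38.3 TPM on average. TPM is a level per length of transcript, given as a share of everything quantified in the library. Nuclear protein-coding genes held 22.7% of TPM in replicate 1 and 22.9% in replicate 2. Over nuclear protein-coding genes alone each TPM would be 4.41 times higher in replicate 1 and 4.37 times higher in replicate 2. Slc1a5 followed at 5.83 TPM, and the other 4 lay under 1 TPM. Of the 9 members 5 were detected, meaning that both replicates reached 1 TPM, beside 40.2% of 21461 nuclear protein-coding genes. The median over the members was 5.83 TPM, beside 0.025 TPM over all nuclear protein-coding genes. The 4 highest members held 95.2% ± 0.440 of the summed TPM of all 9 (SD, n = 2).

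**Figure D1:**
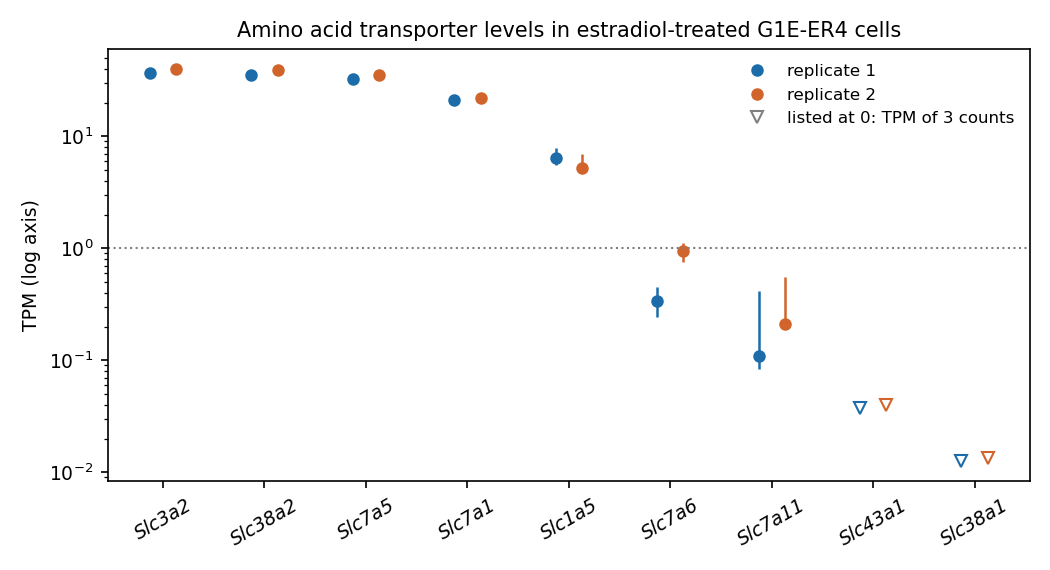
TPM of the 9 transporters in each replicate on a log axis, with vertical lines for the deposited credibility interval of each library and a dotted line at 1 TPM. Open triangles stand for members listed at 0 and are placed at the TPM that 3 counts would give at the gene's effective length. The first 4 genes lie above 20 TPM in both replicates, and Slc43a1 and Slc38a1 are listed at 0.

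Sequences are shown here for the start regions of 4 members, the highest 2 and 2 that differ in level or in annotated starts, and for 1 intron that divides the reads of Slc1a5. The windows run from 250 bases before to 50 bases after a RefSeq gene start (GRCm38.p6) and are written 5′ to 3′ on the gene's strand. Capitals mark matches on either strand to 1 of 6 motifs. The E-box was searched as CACGTG. The GATA motif was searched as AGATAA. The core of the amino acid response element, which ATF4 binds, was TGATGCAA. The core of the antioxidant response element was TGACNNNGC. The CCAAT box and the TATA box, as TATAAA, were the others. The table held windows for 6 of the 9 members and had none for Slc7a5, Slc1a5 and Slc38a1. Slc38a2 (chr15:96699679-96699978, minus strand) and Slc3a2 (chr19:8713848-8714147, minus strand) are the highest members. Slc7a1 (chr5:148399855-148400154, minus strand) has a second annotated start, and Slc7a11 (chr3:50443564-50443863, minus strand) is a low one.
Slc38a2: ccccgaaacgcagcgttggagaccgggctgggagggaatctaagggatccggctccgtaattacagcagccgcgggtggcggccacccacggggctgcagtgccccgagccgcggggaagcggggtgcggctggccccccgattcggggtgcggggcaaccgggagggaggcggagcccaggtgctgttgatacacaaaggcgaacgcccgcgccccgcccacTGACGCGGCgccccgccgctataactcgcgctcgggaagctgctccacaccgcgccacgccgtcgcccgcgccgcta
Slc3a2: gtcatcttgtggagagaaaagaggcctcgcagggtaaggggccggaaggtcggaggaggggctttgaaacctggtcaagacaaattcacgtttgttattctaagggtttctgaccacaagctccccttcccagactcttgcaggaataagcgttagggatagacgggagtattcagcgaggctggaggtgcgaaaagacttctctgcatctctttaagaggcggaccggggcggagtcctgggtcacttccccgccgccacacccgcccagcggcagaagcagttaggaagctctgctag
Slc7a1: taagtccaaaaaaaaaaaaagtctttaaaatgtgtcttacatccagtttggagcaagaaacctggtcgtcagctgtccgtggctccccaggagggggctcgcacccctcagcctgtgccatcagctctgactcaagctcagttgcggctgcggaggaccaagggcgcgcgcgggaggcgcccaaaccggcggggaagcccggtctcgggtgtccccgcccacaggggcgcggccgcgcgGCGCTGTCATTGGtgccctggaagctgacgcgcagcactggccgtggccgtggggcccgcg
Slc7a11: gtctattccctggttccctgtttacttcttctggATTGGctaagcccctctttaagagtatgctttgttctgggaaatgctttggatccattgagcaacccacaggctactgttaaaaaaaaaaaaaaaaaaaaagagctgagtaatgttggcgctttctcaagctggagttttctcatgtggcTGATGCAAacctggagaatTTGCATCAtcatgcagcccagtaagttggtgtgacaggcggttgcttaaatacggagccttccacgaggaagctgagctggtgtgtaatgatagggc

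The Slc7a11 window held TGATGCAA at 2 places, 66 bases and 47 bases before the start, the second on the opposite strand. This motif occurred in 0.895% of 32851 windows of the same length. The Slc7a11 window held 4 CpG dinucleotides, against 41 in the Slc38a2 window and a median of 7 over all windows. TGACNNNGC, present in 12.4% of windows, matched once in each of the Slc38a2 and Slc7a1 windows. In the Slc7a1 window it shares 1 base with the match to CCAAT, a motif present in 37.4% of windows. The Slc7a11 window also held CCAAT. In the Slc3a2 window none of the 6 motifs matched. E-box, GATA motif and TATAAA matches occurred in 7.15%, 11.2% and 13.6% of all windows and in none of these 4. Among member windows not printed here, that of Slc43a1 held an E-box and TATAAA. The window at the second Slc7a1 start held TATAAA. A match describes letters only, and no match says nothing of the factor.

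Slc3a2 encodes the heavy chain and was the highest member (ENSMUSG00000010095.9, chromosome 19, 8706882 to 8723369, mm10, minus strand). It had 36.9 TPM in replicate 1 and 39.7 TPM in replicate 2, which averages 38.3 ± 1.96 (SD, n = 2), from 3002 and 3062 expected counts. Both replicates were close, and 94.9% of nuclear protein-coding genes had a lower mean. Slc7a5 encodes LAT1, the light chain that exchanges large neutral amino acids such as leucine (ENSMUSG00000040010.10, chromosome 8, 121881150 to 121907694, minus strand). It had 32.6 TPM in replicate 1 and 35.2 TPM in replicate 2, which averages 33.9 ± 1.83. Slc7a5 over Slc3a2 was 0.882 in replicate 1 and 0.886 in replicate 2, so this ratio differed less between the replicates than either level did.

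The heavy chain was not in excess over the transcripts of its partners. Slc3a2 TPM was 0.324 of the summed TPM of 6 light chains in replicate 1 and 0.332 in replicate 2, which averages 0.328 ± 0.00538 (SD, n = 2). Most of that sum came from Slc7a8, a gene outside the 9, which encodes LAT2, a light chain for neutral amino acids. Slc7a8 had 80.5 TPM in replicate 1 and 83.1 TPM in replicate 2. It made up 70.0% ± 0.890 of the light chain TPM, while Slc7a5 made up 29.0% ± 0.561. Slc7a8 over Slc7a5 was 2.42 ± 0.0775. The other 4 light chains added little, with mean levels of 0.645 TPM for Slc7a6, 0.335 for Slc7a7, 0.16 for Slc7a11 and no count for Slc7a10. These are RNA levels, and protein was not measured.

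**Figure D2:**
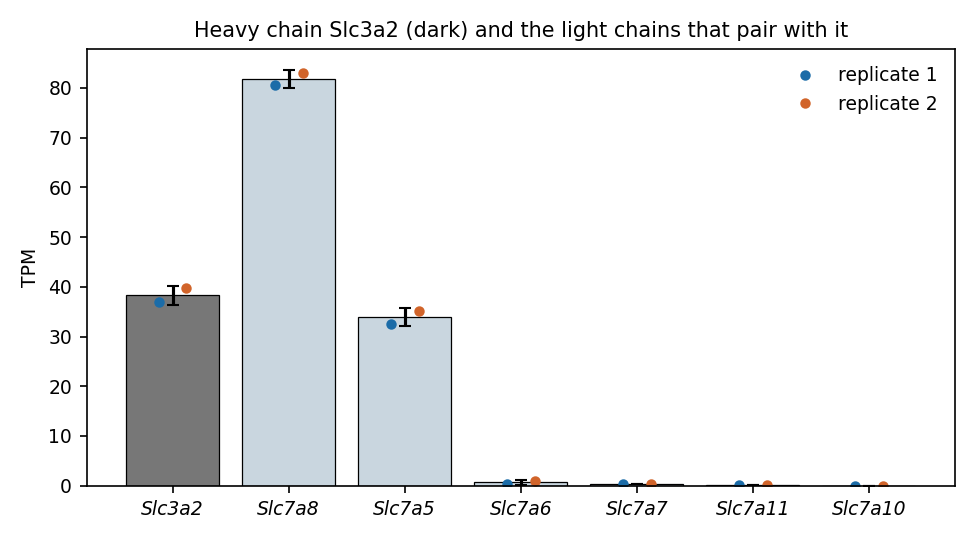
TPM of the heavy chain gene Slc3a2 and of 6 light chain genes, with bars for the mean, error bars for the SD and points for the 2 replicates. Slc7a8 stands highest at 81.8 TPM, while Slc3a2 and Slc7a5 lie at 38.3 and 33.9 TPM.

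Slc7a6 encodes y+LAT2, which exchanges cationic amino acids such as arginine for neutral ones together with sodium (ENSMUSG00000031904.4, chromosome 8, 106168857 to 106198706, plus strand). It had 0.34 TPM from 41 counts in replicate 1 and 0.95 TPM from 107 counts in replicate 2. The deposited credibility intervals, whose level the files do not state, were 0.245 to 0.452 TPM and 0.760 to 1.11 TPM and did not overlap. By expected counts, replicate 2 was 2.61 times replicate 1 for Slc7a6 and 2.6 times for Slc7a11, so these members were about equally uneven. On the log2 scale of TPM + 0.1, Slc7a6 was the least even member, with replicate 2 higher by 1.25. Its ratios to other members moved with it: Slc7a5 over Slc7a6 was 95.8 in replicate 1 and 37.0 in replicate 2, and Slc7a1 over Slc7a6 was 62.6 and 22.9.

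Slc7a11 encodes xCT, the light chain that brings in cystine in exchange for glutamate and so feeds glutathione synthesis (ENSMUSG00000027737.6, chromosome 3, 49892526 to 50443614, minus strand). It was listed at 0.11 TPM from 20 counts in replicate 1 and at 0.21 TPM from 52 counts in replicate 2. Both libraries were low. Slc7a5 over Slc7a11 was 296.1 in replicate 1 and 167 in replicate 2, with a mean of 232 that became 120.5 with the deposited posterior mean TPM and 125 with expected counts. The posterior mean TPM of Slc7a11 was 0.23 in replicate 1 and 0.35 in replicate 2. Part of the gene closely resembles another. Its leading transcript by expected counts, Slc7a11-201, is 9223 nt long. Positions 3399 to 3770, in the 3′ untranslated region, are 96.2% identical to the alpha-tubulin gene Tuba1b over 373 aligned bases on the opposite strand. The expected counts of Tuba1b were 28134 in replicate 1 against 30046 in replicate 2, and Tuba1a, Tuba1c and several pseudogenes match the same stretch. How many Slc7a11 counts fell there was not tested, since the tables give no positions of reads. Whether counting used the strand is not given in the sources used here. In this search no other member shared 100 or more bases at 95% identity with another gene. Only the leading transcript of each member was searched, or the first listed where there was no count, in its M21 form. Slc3a2-201 is shorter in M21 than as deposited, so part of it was not searched. By position, Slc7a11 overlaps 5 annotated genes, of which the antisense gene Gm37854 drew 4 counts in the first library and 0 in the second. The others, Gm37826, Gm37692, Gm2345 and Gm37498, had none. Slc7a5 lies within the span of Gm20388, which had no count. None of these 6 shares an exonic base with a member.

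**Figure D3:**
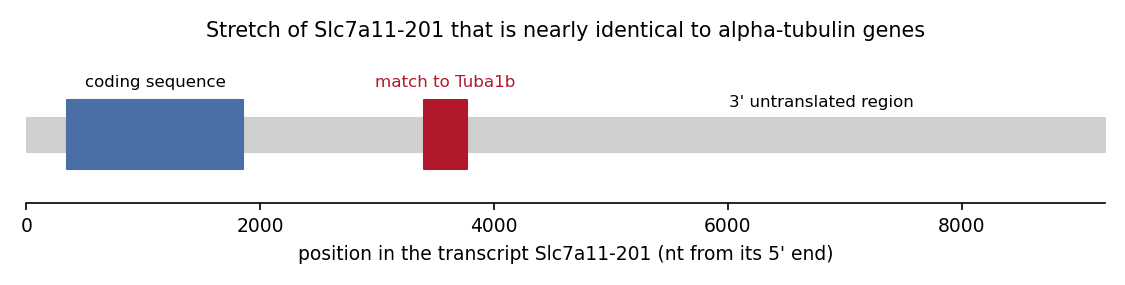
Map of the transcript Slc7a11-201 in nt from its 5′ end, with the coding sequence in blue, untranslated regions in grey and the stretch matching Tuba1b in red. The match spans 4.03% of the transcript and lies outside the coding sequence.

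The cationic carrier Slc7a1 encodes CAT1, which takes up arginine and lysine and is the receptor of ecotropic murine leukemia viruses (ENSMUSG00000041313.10, chromosome 5, 148327410 to 148399904, minus strand). It had 21.3 TPM in replicate 1 and 21.8 TPM in replicate 2, which averages 21.5 ± 0.339 (SD, n = 2). In TPM the 2 libraries differed by less here than for the other 4 detected members. By counts it stood above Slc3a2 and Slc7a5, with 4959 and 4627. Counts are not divided by length, and its main transcript is 7179 nt long, with 1866 nt coding and 5033 nt of 3′ untranslated region in the annotation. Per length it lay below both. Its paralogs Slc7a2 and Slc7a3, which carry the same cationic amino acids, had no count in either replicate, so Slc7a1 held all the TPM listed for these 3 genes.

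Of the members Slc38a2, Slc38a1 and Slc1a5, sodium-dependent carriers of glutamine and other neutral amino acids, Slc38a2 was the highest. It encodes SNAT2, a sodium-coupled carrier known to be induced by amino acid shortage (ENSMUSG00000022462.6, chromosome 15, 96687392 to 96699730, minus strand). It had 35.6 TPM in replicate 1 and 39.3 TPM in replicate 2, which averages 37.5 ± 2.59, from 5294 and 5544 counts. Its close relative Slc38a1, which encodes SNAT1, lies on the same chromosome (96571418 to 96642913) and had 0 counts in replicate 1 and 1 count in replicate 2. A count of 0 allows up to 3 counts, which is 0.0126 TPM for Slc38a1 in replicate 1 at its deposited effective length, and this limit allows for counting error alone. The deposited credibility intervals of Slc38a1 reach higher, to 0.0262 TPM in replicate 1 and 0.0341 TPM in replicate 2. Both lie far below the level of Slc38a2, and no fold is given.

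Slc1a5 encodes ASCT2, a sodium-dependent exchanger of glutamine and other neutral amino acids (ENSMUSG00000001918.13, chromosome 7, 16781340 to 16798274, plus strand). It had 6.39 TPM in replicate 1 and 5.26 TPM in replicate 2, which averages 5.83 ± 0.799 (SD, n = 2), from 297 and 298 counts. The counts were nearly the same while the TPM was higher in replicate 1, and the 2 libraries divided the reads differently among transcripts, as given below. Slc1a5 over Slc7a5 was 0.173 ± 0.0329. Of the TPM of Slc1a5, Slc38a1 and Slc38a2 together, Slc38a2 held 86.5% ± 2.40.

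Slc43a1 encodes LAT3, which carries leucine and other neutral amino acids without a heavy chain (ENSMUSG00000027075.12, chromosome 2, 84838850 to 84863594, plus strand). It had no count in either replicate on any of its 6 transcripts. At the gene's deposited effective length, 3 counts would be 0.0378 TPM in replicate 1 and 0.0399 TPM in replicate 2. The deposited credibility intervals reach higher, to 0.276 TPM and 0.292 TPM, and the limit would also be higher for the shortest transcript. No fold against Slc43a1 is given.

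The order of the levels had steps wider than the spread between replicates and steps within it. Slc3a2 and Slc38a2 differed by 0.845 TPM, less than their summed SDs of 4.55 TPM, and their ranges over the replicates overlapped. Slc38a2 and Slc7a5 did not overlap, but their gap of 3.59 TPM was below the summed SDs of 4.42 TPM. Slc7a5 lay above Slc7a1 by 12.3 TPM, Slc7a1 above Slc1a5 by 15.7 TPM and Slc1a5 above Slc7a6 by 5.18 TPM, each more than the summed SDs. Slc7a6 and Slc7a11 did not overlap, but their gap of 0.485 TPM was below the summed SDs of 0.502 TPM. Within each library, though, the higher gene of each of these 3 close pairs was higher in 2 of 2 libraries. The deposited credibility intervals of Slc3a2 and Slc38a2 overlapped in both libraries. Those of Slc38a2 and Slc7a5, and of Slc7a6 and Slc7a11, overlapped in replicate 1 only. Slc43a1 and Slc38a1 could not be ordered.

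Most members with many reads had 1 dominant transcript. Slc38a2 and Slc7a6 have 1 listed transcript each. Slc7a5-201 held 98.3% ± 0.290 of Slc7a5 TPM, and the rest fell on a retained-intron transcript (SD, n = 2). Slc3a2-201 held 94.7% ± 0.163 of Slc3a2 TPM. It is 2572 nt long in the deposited tables and 1819 nt in M21. The transcript Slc3a2-202, whose annotated start lies 9490 bases away, held the rest. For Slc7a1, Slc7a1-201 held 100% of TPM in replicate 1 and 95.7% in replicate 2. The transcript Slc7a1-202, which begins 7089 bases further in, had no count. The difference in replicate 2 was 16.2 counts on the 675 nt transcript Slc7a1-203. Slc7a11-201 held 48.8% of Slc7a11 TPM in replicate 1 and 79.7% in replicate 2, on 15.7 and 48.5 counts. By the deposited posterior mean its share was 22.1% and 46.4%. By that measure Slc7a11-203, which had no expected count, was higher in replicate 1, at 35.2%.

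Slc1a5 was the exception, and its 2 main transcripts changed places between the replicates. The coding transcript Slc1a5-201 held 9.10% of the gene's expected counts in replicate 1 and 72.0% in replicate 2. The retained-intron transcript Slc1a5-202, which has no annotated coding sequence, held 70.3% in replicate 1 and 17.2% in replicate 2. In the annotation the second contains all of the 71 bases of intron 7 of the first (chr7:16795953-16796023, mm10, plus strand), and 2736 bases are common to both. The first begins 28 bases earlier in M21, where it is 2764 nt long, against 2741 nt in the deposited tables. The exonic bases on both sides of that intron are coding. The stretch is printed from the GENCODE M21 transcript Slc1a5-202 with the intron in capitals and 20 exonic bases on either side in lower case.
Slc1a5-202: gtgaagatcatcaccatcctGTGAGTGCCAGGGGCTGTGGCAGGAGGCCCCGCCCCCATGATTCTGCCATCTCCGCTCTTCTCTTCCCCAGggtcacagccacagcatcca

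Apart from the start of the first transcript, only reads over this intron or its junction tell these transcripts apart. With 297 and 298 counts on the whole gene, few reads can cover 71 bases, and their number is not in the tables. Coding transcripts held 27.2% ± 31.7 of Slc1a5 TPM (SD, n = 2), a spread wider than the mean. The level of coding Slc1a5 transcripts alone was 0.31 TPM in replicate 1 and 2.61 TPM in replicate 2. For the other 6 members with 10 or more counts in each library, coding transcripts held at least 81.0% of TPM in each library. The lowest was Slc7a11 in replicate 2, on 52 counts. By the deposited posterior mean its coding share was lower. There Slc7a11-203, which is not annotated as coding, held 35.2% in replicate 1 and 24.7% in replicate 2.

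**Figure D4:**
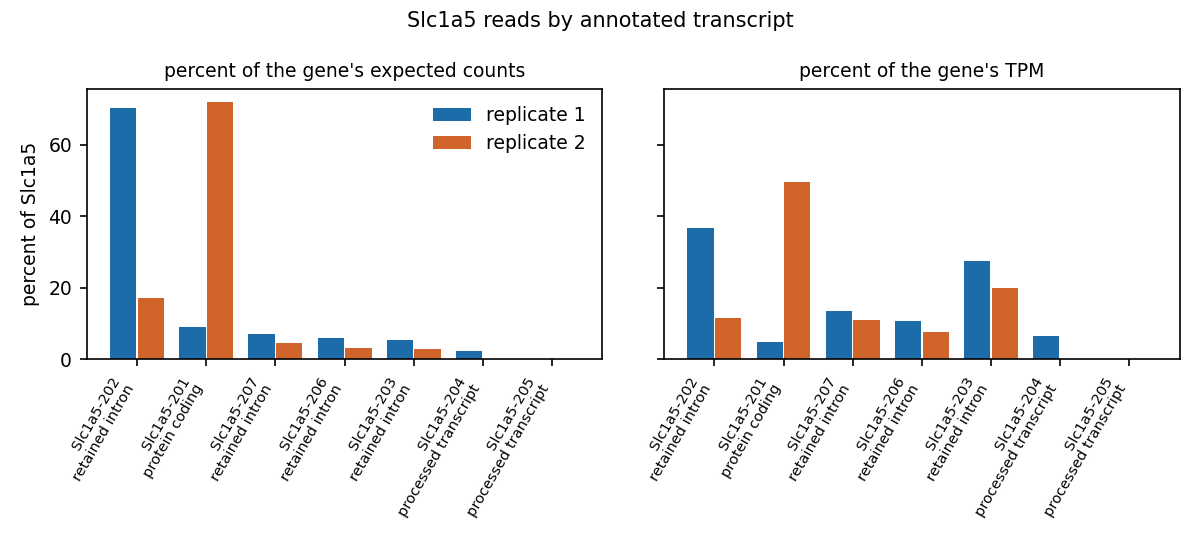
Share of Slc1a5 expected counts (left) and of Slc1a5 TPM (right) on each of 7 annotated transcripts, with 1 bar for each replicate. Slc1a5-202 leads in replicate 1 and Slc1a5-201 in replicate 2 on both scales.

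The replicates were close for the members with many reads. Of the 7 members with 10 or more counts in each library, 1 lay outside the 95% range that counting noise and the common variation between replicates give, beside 8.79% of 9589 nuclear protein-coding genes. This member was Slc7a6, with a log2 ratio of 1.25 and a range of 0.72 on either side of the median ratio of 0.03. Of all these genes, 98.5% differed less. Slc3a2, Slc38a2, Slc7a5 and Slc7a1 had log2 ratios between 0.03 and 0.14. Slc7a11 had 0.56, within its range of 0.90. On TMM-scaled counts, which do not use transcript length, Slc7a11 had 1.23 and lay outside. Markers of granulocytes and macrophages were also higher in replicate 2. As given above, the 7 marker genes summed to 0.97 TPM in replicate 1 and 4.93 TPM in replicate 2, with Csf1r at no count and Mpo at 1 count and 70 counts. Their part in the Slc7a6 and Slc7a11 values was not tested.

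**Figure D5:**
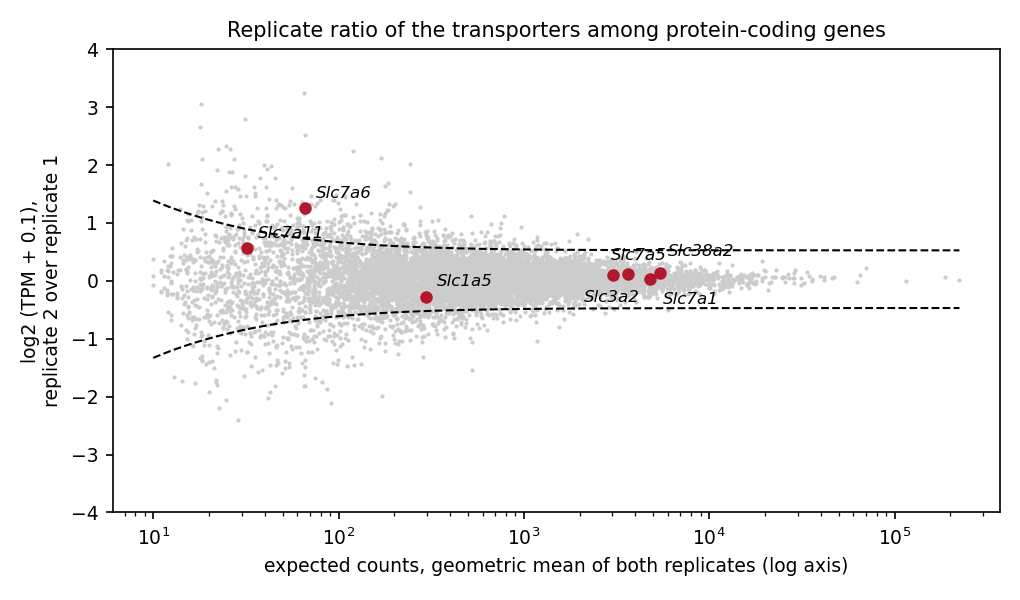
Log2 ratio of TPM + 0.1, replicate 2 over replicate 1, against expected counts on a log axis, with protein-coding genes in grey, transporters in red and the 95% range dashed. Slc7a6 lies above the upper line, and the other 6 transporters lie between the lines.

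Of 44 further transporters 11 were detected, or 25%, below the 40.2% of all nuclear protein-coding genes. Of the 44, 24 had no count in either replicate, beside 10087 of 21461 nuclear protein-coding genes. After Slc7a8, the highest were Slc38a10 (12.7 ± 2.41 TPM), Slc16a10, a carrier of aromatic amino acids (6.22 ± 0.0424 TPM), and Slc38a7, a lysosomal glutamine carrier (4.93 ± 0.940 TPM). The 9 members held 51.9% ± 1.62 of the TPM of all 53 transporters (SD, n = 2). Chosen after their values were seen, Slc6a9, the glycine transporter GlyT1, had 0.88 ± 0.297 TPM, and Slc43a2, the paralog of Slc43a1, had 2.85 ± 0.559 TPM.

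Genes that sense and respond to amino acids were mostly present. Over all nuclear protein-coding genes 40.2% were detected, with a median of 0.025 TPM. Of 34 genes of mTORC1 sensing 30 were detected (88.2%), with a median of 9.03 TPM. Eif4ebp1, a translation repressor that mTORC1 inactivates, led at 86.2 ± 4.12 TPM, followed by Lamtor3 (31.7 ± 1.04), a subunit of the lysosomal Ragulator complex, Seh1l (27.7 ± 0.410), a GATOR2 subunit, and Lamtor1 (25.4 ± 0.141). Rragb, Sesn3 and Castor2 had no count. Of 15 genes of the amino acid starvation response 11 were detected (73.3%), with a median of 6.06 TPM. Asns, the asparagine synthetase and a target of ATF4, stood at 527 ± 12.3 TPM, far above Shmt2 (88.9 ± 1.21), Psat1 (79.1 ± 1.46) and Ddit3 (15.6 ± 0.990). Chac1, Vldlr and Gpt2 had no count. Slc7a11, also a known ATF4 target and with the response element core in its window above, was at 0.16 TPM.

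All 9 genes of a list on glutathione synthesis were detected, beside 40.2% of all nuclear protein-coding genes. Their median was 30.5 TPM, the level of Nfe2l2. The list also holds genes beyond glutathione synthesis and use. These are Nfe2l2 and Keap1, regulators of the antioxidant response, and Txnrd1, a thioredoxin reductase. Gpx1, a glutathione peroxidase, led at 377 ± 0.269 TPM, followed by Gclm (73.8 ± 4.58), the modifier subunit of the first enzyme of synthesis, Gpx4 (55.2 ± 0.933) and Gsr (34.1 ± 5.20). Keap1 (5.35 ± 0.764) and Gss (3.34 ± 0.460), the second enzyme, were lowest. The cystine carrier Slc7a11 lay well below every one of them.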

How the data were processed

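Total RNA of 2 replicates of 1 group was analysed. The assembly was mm10, per the labels, and the deposited documentation names GENCODE M4. The quantifier's version, the aligner and whether counting used strand: not given in the sources used here. Expected counts, as the authors deposited them, are estimates per gene or transcript and not normalized. The authors scaled the deposited TPM and FPKM by effective length and depth. Each transcript's part of its gene is a percent that the authors deposited. The deposited credibility bounds of TPM were used as given, with no level stated.

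Identifiers without version were named from GENCODE M21, which matched 42462 of 43346 genes and all 31 transcripts of the members. Transcript lengths can differ between the releases. Slc66a1 was matched through RefSeq as Pqlc2. The members and lists were chosen with earlier results of these data known. The rule named all members, up to 4 of the highest and 2 of the lowest genes of each list (ties at 0 in part), the genes of fixed pairs, and genes that overlap a member in the annotation. The 6 light chains were set with the heavy chain ratio. Genes named for sequence identity to Slc7a11 were found by the search. With 1 group and 2 libraries, no genes of like pattern were named.

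Ratios of replicate 2 over replicate 1 were taken on log2 of TPM + 0.1. This makes differences of low genes look smaller. The 95% range combined Poisson noise with the common coefficient of variation of 0.125 from edgeR 4.0.16 in R 4.3.3. The counts were rounded, scaled by TMM and filtered with filterByExpr to 10926 genes. This step was tried on simulated counts with the same coefficient for every gene. The trial used ratios of scaled counts, so it does not check the range as applied to TPM + 0.1. DESeq2 1.42.0 was used for alternatives. Transcript identity came from BLAST+ 2.17.0 on M21. Other steps ran in Python 3.11.15 with scipy 1.17.1, pandas 2.3.3, numpy 2.4.6, and matplotlib 3.10.9 for figures. Alternatives changed the TPM threshold, unit, pseudocount, scaling and dispersion, and left out each replicate. No molecular identifiers are named, so a floor of 3 counts allows for counting error alone. A planned comparison of protein sequences was not run.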

Additional observations from a re-analysis of the deposited data

How the results depend on the processing

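No paired analysis was possible because the series has a single group. The number of detected members, 5, was also 5 at thresholds of 0.5 and 5 TPM and with either replicate alone, 4 at 10 TPM, and 6 when TPM was rescaled over nuclear protein-coding genes. The number among the 44 other transporters, 11, became 3 with the threshold raised to 5 TPM and lay between 11 and 13 with either replicate alone. The share of all nuclear protein-coding genes was taken only at the main setting, 40.2%. Whether these counts moved as those of all genes did was therefore not tested. The ratio of heavy chain to light chains, 0.328, was 0.216 from expected counts and between 0.324 and 0.332 with either replicate alone. The number of members outside the replicate range, 1, became 2 with TMM scaling, beside 5.55% of all genes tested, and 2 with DESeq2 size factors, beside 6.59% (Slc7a6 and Slc7a11 in both). It became 2 with the median DESeq2 dispersion (Slc7a6 and Slc1a5), beside 30.5%, a share close to that of the members. It became 0 with a pseudocount of 1, beside 4.19%. With that pseudocount the log2 ratio of Slc7a6 was 0.54. The log2 ratio of Slc7a11 was 1.23 with TMM scaling and 1.42 with DESeq2 size factors. The deposited effective length of Slc7a11, which enters TPM but not scaled counts, was 5651 in replicate 1 and 7774 in replicate 2. The parts of length, pseudocount and counting error in these shifts were not tested separately. The counts of 20 to 107 behind Slc7a6 and Slc7a11 limit what can be said of them, as do the 297 and 298 counts behind the transcript shares of Slc1a5.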
